A study of Caenorhabditis elegans with 24 samples.

Results

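Glutathione S-transferase (GST) genes of Caenorhabditis elegans were followed across fed and fasted worms on 3 kinds of RNAi plate. Members were taken by name: probe sets that name 1 gene whose symbol begins with gst-, gstk- or gsto-, with the probe set of highest mean standing for a gene and a log2 intensity above 4 on at least 3 arrays. Of 45 such genes with a probe set of their own, 41 passed and were tested among 12277 genes of the array, namely 36 gst genes, the 3 gsto genes and the 2 gstk genes. The 4 that stayed below the filter were gst-17, gst-19, gst-23 and gst-32, and 27 of the 41 lay above log2 4 on all 24 arrays. In 12 of the 41 at least 1 group mean lay below log2 4, where values are near the floor of the array. For 8 of the 41 the probe set is of a type that can share sequence with other transcripts. These are gst-9, gst-16, gst-20, gst-27, gst-33, gst-40, gst-41 and gstk-2. Just inside the filter were gst-14 and gst-9, above log2 4 on 6 and 7 arrays, and just outside it gst-23, on 1. A gene that passed only through its brighter group had to differ between groups, so counts over the 41 describe these genes and test nothing about the family.

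GSTs join glutathione, a small sulphur-carrying peptide made by every cell, to reactive or foreign compounds, which makes these easier to export and less harmful. The cytosolic gst genes of worms form a large family, much of it expanded in nematodes and lying in clusters, and many are made in the intestine. The omega class (gsto genes) carries out reductions that use glutathione, the kappa class works in organelles, with GSTK-1 in peroxisomes and GSTK-2 in mitochondria, and the zeta class (gst-42) isomerises an intermediate of tyrosine breakdown. Worms under oxidative stress raise many gst genes through the transcription factor SKN-1, for which gst-4 is the usual reporter.

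The worms were wild type (N2), grown at 20 °C on plates of control RNAi bacteria or of bacteria for RNAi against Rheb (rheb-1), a GTPase upstream of TOR, or against the nutrient-sensing kinase TOR (let-363). On each plate they either ate freely or were fasted for 48 h, and whole worms were collected at day 4 of adulthood, giving 5 fed and 5 fasted arrays of control RNAi, 4 and 4 of Rheb RNAi, and 3 and 3 of TOR RNAi. The labels do not say what the control RNAi bacteria carry, and the labels call the arrays biological replicates. Because whole worms were measured, fewer cells of a type and less RNA per cell cannot be told apart in any value below.

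Array medians lay between 46.9 and 58 intensity units, and arrays of 1 group correlated at 0.968 or above on the log2 scale. let-363 was lower on TOR RNAi by both of its probe sets, whereas rheb-1 was lower on Rheb RNAi by 1 of its 2 probe sets, the other being at -0.3 ± 0.24 in fed and -0.5 ± 0.24 in fasted worms. The 24 arrays fell into 12 with a first quartile of 10.6 to 12 intensity units and 12 with 9.42 to 10.3, and all 6 TOR RNAi arrays were in the second set, so this division cannot be told apart from TOR RNAi except through the control and Rheb RNAi arrays that it splits. On Rheb RNAi fed array 3 and TOR RNAi fasted array 2 the 3′ to middle signal of long control transcripts, a sign of RNA quality, was highest, at log2 1.82 and 1.56, against 0.9 to 1.46 elsewhere.

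Throughout, a change is a difference of group means on the log2 scale with its standard error (± SE), array values are log2 intensities in the order of the array numbers, and rose, fell, higher and lower mean limma's adjusted p under 0.05 over all genes tested.

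More GST genes fell than rose with fasting. In control RNAi worms 16 of 41 fell and 3 rose, whereas 7.91% of all genes tested fell and 11% rose (18.9% called in all), so the share of members that fell (39%) was above that of the array. In Rheb RNAi worms 14 fell and 1 rose (all genes 8.67% and 3.23%, 11.9% in all), and in TOR RNAi worms 8 fell and 1 rose (all genes 5.16% and 1.08%, 6.24% in all). The median change of the 41 was -0.29, -0.21 and -0.16 on the 3 plates, against 0.04, 0.09 and 0.08 over all genes. With the array number as a block, TOR numbers apart, the counts were 18 lower and 8 higher on control, 16 and 2 on Rheb and 12 and 2 on TOR RNAi. The shares of all genes given here are those without the block, so the block counts cannot be set against them. Fed and fasted arrays did not overlap at all for 13, 12 and 19 of the 41, as against 12.5%, 14.6% and 23.5% of all genes. The 3 comparisons rest on different arrays. Lower on every plate were gst-6, gst-10, gst-24, gst-26 and gst-27, which makes 5 of 41 against 2.76% of all genes.

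**Figure D1:**
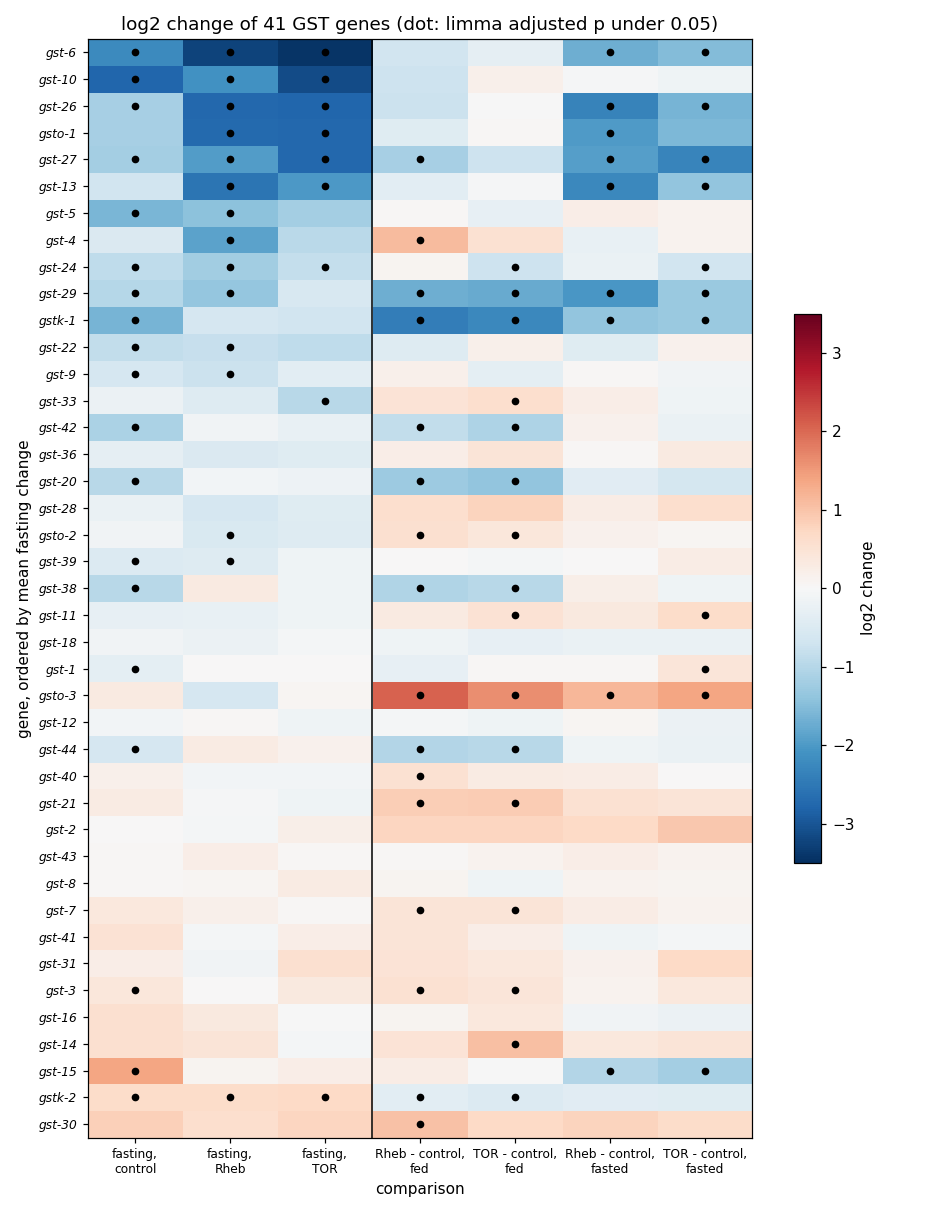
Log2 change of the 41 tested GST genes (rows, ordered by mean change with fasting) in 3 fasting and 4 knockdown comparisons (columns), with a dot where limma's adjusted p is under 0.05. The strongest falls with fasting, at the top, are in gst-6, gst-10, gst-26, gsto-1, gst-27 and gst-13, and the strongest rise in the fed knockdowns is in gsto-3.

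gst-6 read 8.29, 8.14, 7.82, 9.6 and 8.99 in fed and 6.93, 5.88, 6.75, 5.94 and 6.24 in fasted control worms. On Rheb RNAi, gst-6 read 7.4, 7.78, 7.51 and 8.87 fed and 4.94, 3.99, 4.26 and 5.4 fasted. On TOR RNAi, gst-6 read 8.01, 8.83 and 7.91 fed and 4.55, 4.93 and 5 fasted. Every fasted array lay below every fed array of its plate, and the fasted knockdown arrays lay below all fasted control arrays. gst-6 fell by 2.22 ± 0.34, to 21.5% of its fed level, in control worms (limma's adjusted p = 4.7e-05), fell by 3.24 ± 0.38 on Rheb RNAi (adjusted p = 1.3e-06) and fell by 3.43 ± 0.44, to 9.31%, on TOR RNAi (adjusted p = 7.3e-06). Its control response was -1.56 ± 0.29 among the arrays of higher first quartile and -3.21 ± 0.32 among those of lower, both called. The further loss on the knockdown plates, -1.02 ± 0.51 for Rheb and -1.21 ± 0.56 for TOR, did not pass as a difference of responses (adjusted p = 0.32 and 0.4).

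gst-10 encodes an enzyme that conjugates hydroxynonenal, a reactive product of lipid peroxidation. Fed control worms gave gst-10 values of 9.3, 9.01, 9.29, 9.97 and 9.61, and fasted ones 7.16, 5.95, 6.94, 6.65 and 6.58. On Rheb RNAi, gst-10 read 8.38, 7.7, 9.29 and 9.49 fed and 6.5, 6, 6.83 and 7.12 fasted. On TOR RNAi, gst-10 read 9.35, 9.78 and 9.74 fed and 6.19, 6.73 and 6.59 fasted. The fasted arrays of all 3 plates covered a like range, and none reached a fed array of its own plate. gst-10 fell by 2.78 ± 0.29 in control worms, a 6.89-fold loss (limma's adjusted p = 2.4e-07), fell by 2.11 ± 0.33 on Rheb RNAi and fell by 3.12 ± 0.38 on TOR RNAi (adjusted p = 5.7e-05 and 2.9e-06). In fasted worms the knockdowns were at -0.04 ± 0.31 and -0.15 ± 0.34 relative to control, with 95% intervals of -0.68 to 0.6 and -0.84 to 0.55. A second probe set, which also names the neighbouring entry F56A4.3, fell by 2.65 ± 0.34, fell by 1.87 ± 0.38 and fell by 2.84 ± 0.44 on the control, Rheb and TOR plates.

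gst-26 and gst-27 are next to each other on chromosome II. gst-26 read 7.32, 7.17, 7.37, 8.24 and 8.34 in fed and 6.52, 5.8, 6.87, 6.89 and 6.51 in fasted control worms. On Rheb RNAi, gst-26 read 6.42, 6.52, 7.39 and 7.48 fed and 3.84, 4.03, 3.69 and 5.19 fasted. On TOR RNAi, gst-26 read 7.65, 7.4 and 7.96 fed and 4.5, 5.14 and 5.05 fasted. Fed and fasted arrays were apart on each plate, and 3 of the 4 fasted Rheb RNAi arrays were close to or below log2 4. It fell by 1.17 ± 0.3 in control worms (limma's adjusted p = 0.0079), fell by 2.76 ± 0.34 on Rheb RNAi (adjusted p = 2.2e-06) and fell by 2.77 ± 0.39 on TOR RNAi (adjusted p = 2.5e-05). Values below log2 4 give only a bound, and with them set to 4 the Rheb RNAi change was -2.65.

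gst-27 read 9.18, 8.67, 8.91, 9.39 and 9.47 in fed and 8.21, 7.46, 8.31, 7.85 and 7.88 in fasted control worms. On Rheb RNAi, gst-27 read 7.53, 7.42, 8.63 and 8.34 fed and 5.83, 5.6, 6.16 and 6.51 fasted. On TOR RNAi, gst-27 read 8.19, 8.06 and 8.96 fed and 5.59, 5.43 and 5.92 fasted. No fasted array reached a fed array of its plate, fasted Rheb and TOR RNAi arrays overlapped, and none of them reached a fasted control array. gst-27 fell by 1.18 ± 0.24, fell by 1.95 ± 0.27 and fell by 2.76 ± 0.32 on the control, Rheb and TOR plates (limma's adjusted p = 0.0013, 1.6e-05 and 1.4e-06). Its probe set is of a type that can share sequence with other transcripts. Among the control arrays of higher first quartile alone the fasting changes of gst-26 and gst-27 were -0.89 ± 0.29 and -0.93 ± 0.32 and did not pass, with limma's adjusted p = 0.08 and 0.1, while among those of lower first quartile both were called, at -1.59 ± 0.26 and -1.57 ± 0.28.

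The smallest of these falls was that of gst-24, a bright probe set with little scatter. gst-24 read 12.42, 11.93, 12.04, 12.3 and 12.08 in fed and 11.32, 11.01, 11.56, 11.03 and 11.35 in fasted control worms. On Rheb RNAi, gst-24 read 12.25, 12, 12.43 and 12.32 fed and 11.21, 10.82, 11.06 and 11.07 fasted. On TOR RNAi, gst-24 read 11.32, 11.26 and 11.72 fed and 10.46, 10.41 and 10.89 fasted. No fasted array reached a fed array of its plate. gst-24 fell by 0.9 ± 0.14, fell by 1.21 ± 0.16 and fell by 0.84 ± 0.18 on the 3 plates (limma's adjusted p = 6.2e-05, 5.8e-06 and 0.0036), and TOR RNAi worms were lower than control worms, by a change of -0.72 ± 0.16 when fed and -0.67 ± 0.16 when fasted.

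**Figure D2:**
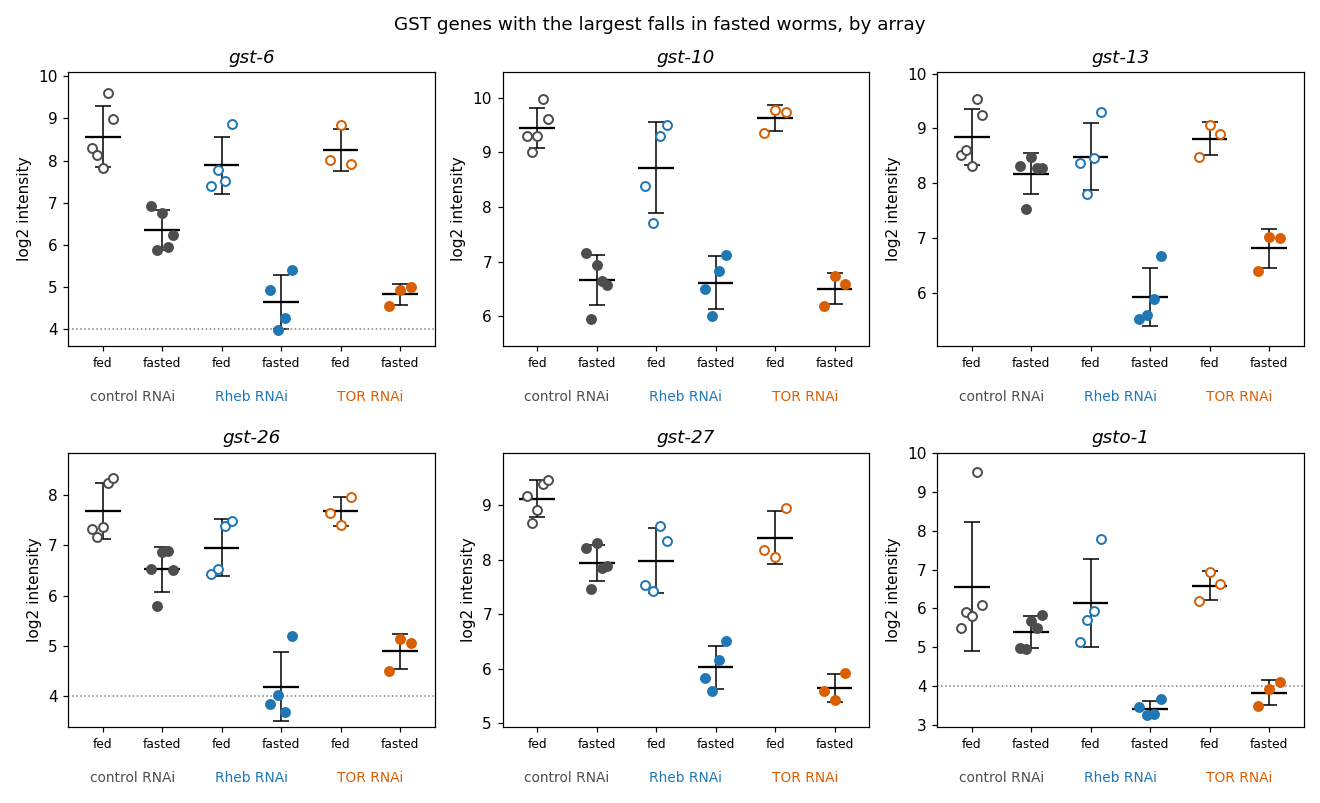
Log2 intensity by array of gst-6, gst-10, gst-13, gst-26, gst-27 and gsto-1 in fed (open) and fasted (filled) worms on control, Rheb and TOR RNAi, with group mean and SD (bars) and log2 4 as a dotted line where in range. Fasted arrays lie below fed ones on every plate for gst-6, gst-10, gst-26 and gst-27, while gst-13 and gsto-1 show overlapping fed and fasted control arrays and separate knockdown arrays.

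Fasting changed gst-13 and gsto-1 on the knockdown plates, and the response of gst-13 on Rheb RNAi differed from that of control worms. gst-13 read 8.51, 8.61, 8.31, 9.53 and 9.24 in fed and 8.32, 7.53, 8.47, 8.27 and 8.28 in fasted control worms. On Rheb RNAi, gst-13 read 8.37, 7.8, 8.46 and 9.29 fed and 5.52, 5.6, 5.89 and 6.67 fasted. On TOR RNAi, gst-13 read 8.48, 9.06 and 8.9 fed and 6.4, 7.02 and 7 fasted. The 3 fed groups overlapped, and the fasted knockdown arrays were below every other array of the gene. gst-13 fell by 2.56 ± 0.31 on Rheb RNAi (limma's adjusted p = 2.1e-06) and fell by 2.01 ± 0.36 on TOR RNAi (adjusted p = 0.00053), whereas the control change, -0.67 ± 0.28, did not pass (adjusted p = 0.099), though it did with the array number as a block (adjusted p = 0.0054). The difference of responses from control was -1.89 ± 0.42 for Rheb RNAi (adjusted p = 0.0072) and held without any single array, at -2.14 to -1.62. For TOR RNAi it was -1.34 ± 0.45 (adjusted p = 0.16, or 0.0059 with the block).

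GSTO-1 is an omega class enzyme of the worm intestine. gsto-1 read 5.49, 5.91, 5.8, 9.52 and 6.08 in fed and 4.97, 4.96, 5.68, 5.49 and 5.84 in fasted control worms. On Rheb RNAi, gsto-1 read 5.14, 5.7, 5.93 and 7.78 fed and 3.46, 3.24, 3.27 and 3.67 fasted. On TOR RNAi, gsto-1 read 6.19, 6.94 and 6.64 fed and 3.47, 3.92 and 4.09 fasted. Control fed array 4 stood far above the other control arrays, and all but 1 of the 7 fasted knockdown arrays were below log2 4. gsto-1 fell by 2.73 ± 0.61 on Rheb RNAi and fell by 2.76 ± 0.71 on TOR RNAi (limma's adjusted p = 0.0034 and 0.016), or -2.14 and -2.56 with values below 4 set to 4. The call on TOR RNAi was lost without TOR RNAi fed array 2, fed array 3 or fasted array 1 (-2.73 to -2.58), and both calls with 32 units added to each intensity (-1.33 and -1.48). In control worms the change was -1.17 ± 0.55 (adjusted p = 0.15, or 0.039 with the array number as a block), and without control fed array 4 it was -0.43 ± 0.35 (adjusted p = 0.44). Without that array the difference of responses from control was -2.3 ± 0.5 for Rheb RNAi and -2.33 ± 0.55 for TOR RNAi, both called (adjusted p = 0.0081 and 0.022), whereas with it these were -1.56 ± 0.82 and -1.59 ± 0.89 and were not.

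gst-5 fell with fasting on control and Rheb RNAi. gst-5 read 9.34, 8.18, 8.31, 9.26 and 8.99 in fed and 7.59, 6.64, 7.19, 7.22 and 7.42 in fasted control worms. On Rheb RNAi, gst-5 read 9.06, 8.18, 8.66 and 9.53 fed and 7.64, 6.92, 7.12 and 8.04 fasted. On TOR RNAi, gst-5 read 8.07, 8.82 and 8.7 fed and 6.86, 7.68 and 7.44 fasted. Fed and fasted arrays were apart on every plate, and neither knockdown was called against control in either feeding state. gst-5 fell by 1.61 ± 0.28 in control and fell by 1.43 ± 0.31 in Rheb RNAi worms (limma's adjusted p = 0.00022 and 0.0029), and the TOR RNAi change of -1.2 ± 0.36 just missed the threshold (adjusted p = 0.05, or 3.6e-05 with the TOR array numbers as a block).

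gst-4, the reporter of SKN-1 activity, fell with fasting on Rheb RNAi, where its fed level was above that of fed control worms. gst-4 read 8.78, 8.98, 8.8, 10.16 and 9.91 in fed and 8.43, 7.81, 9.32, 9.53 and 9.02 in fasted control worms. On Rheb RNAi, gst-4 read 9.95, 9.77, 10.99 and 10.99 fed and 8.36, 7.51, 8.98 and 9.42 fasted. On TOR RNAi, gst-4 read 9.44, 9.73 and 10.42 fed and 8.7, 9.09 and 9.02 fasted. Control fed and fasted arrays overlapped, the Rheb RNAi ones did not, and fed Rheb RNAi arrays overlapped the 2 highest fed control arrays. gst-4 fell by 1.86 ± 0.42 on Rheb RNAi, or 3.62-fold (limma's adjusted p = 0.0039). Relative to fed control worms it rose by 1.1 ± 0.4 on Rheb RNAi (adjusted p = 0.038), a call lost without control fed array 1, 2 or 3 or Rheb RNAi fed array 3 or 4, at 0.91 to 1.01. In control and TOR RNAi worms the fasting changes were -0.5 ± 0.38 and -0.93 ± 0.49 (adjusted p = 0.39 and 0.41), the second called with the block (adjusted p = 0.021).

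The remaining falls were smaller. gst-22 fell, with a change of -0.85 ± 0.22 in control worms and -0.81 ± 0.25 on Rheb RNAi, and the second call was lost without Rheb RNAi fed array 1, 3 or 4 or fasted array 2 or 3 (-0.77 to -0.72). gst-39 fell on the same plates, with changes of -0.47 ± 0.12 and -0.44 ± 0.13, the second call being lost without Rheb RNAi fed array 3 or 4 or fasted array 2 or 3 (-0.45 to -0.34). The dim gst-9 fell there too, with changes of -0.6 ± 0.16 and -0.74 ± 0.17, or -0.21 and -0.41 with values below 4 set to 4, and its probe set can share sequence with other transcripts. All arrays of gst-9 above log2 4 were fed ones. It passed the filter only through the groups where it is high, so its falls, counted above, test nothing. gsto-2 fell by 0.53 ± 0.15 on Rheb RNAi, a call lost without Rheb RNAi fed array 4 or fasted array 2, 3 or 4 (-0.51 to -0.42). gst-33 fell by 0.96 ± 0.23 on TOR RNAi, a call lost without TOR RNAi fed array 3 or fasted array 3 (-0.88 to -0.76). All of these changes were under 2-fold. Among the control arrays of higher first quartile alone the control falls of gst-22, gst-39 and gst-9 were not called, at -0.88, -0.41 and -0.37. That of gst-39 was not called among those of lower first quartile either, at -0.55. With the array number as a block gst-22 was also called on TOR RNAi, at -0.89 ± 0.28 (limma's adjusted p = 0.009).

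Some markers of the intestine and hypodermis were also lower with fasting, while those of muscle and neurons were called in both directions in control worms. Of all genes, 7.91%, 8.67% and 5.16% were lower and 11%, 3.23% and 1.08% higher on the 3 plates. Of 11 markers of the intestine on the array, 2, 6 and 5 were lower with fasting on the control, Rheb and TOR plates and none was higher by limma, nor at an unadjusted p under 0.05 (0 on each plate). Their summed intensity was 12653 to 17706 in fed and 9872 to 15525 in fasted control worms, 11470 to 15620 and 8514 to 10423 on Rheb RNAi, and 13412 to 17084 and 8715 to 9892 on TOR RNAi. No intestinal marker was below log2 4 on every array of a group. act-5, an actin of intestinal microvilli, fell on the 3 plates, with changes of -1.96 ± 0.27, -1.36 ± 0.3 and -2.1 ± 0.35, and ges-1, a gut esterase, was at -0.22 ± 0.21 in control worms and fell on the knockdown plates, with changes of -1.65 ± 0.24 and -1.08 ± 0.27. Of 5 tested hypodermis markers 3, 2 and 0 were lower, and their summed intensity, with 1 further marker below log2 4 on every array, was 1764 to 3557 in fed and 813 to 1244 in fasted control worms, 870 to 1656 and 351 to 628 on Rheb RNAi, and 346 to 744 and 274 to 748 on TOR RNAi. Of 7 muscle markers 1, 2 and 1 were lower and 1, 0 and 0 higher, with sums of 3847 to 7471 in fed and 3625 to 6987 in fasted control worms, 9373 to 15369 and 5752 to 8153 on Rheb RNAi, where they did not overlap, and 4615 to 8104 and 2667 to 5770 on TOR RNAi. Of 9 neuron markers 1, 1 and 0 were lower and 1, 0 and 0 higher, or 1, 3 and 3 lower and 3, 0 and 0 higher at an unadjusted p under 0.05. No germline, oocyte or embryo marker was called with fasting by limma. At an unadjusted p under 0.05, 2 germline and 1 oocyte markers were lower in control worms. At the same threshold 2 and 3 embryo markers were higher on control and Rheb RNAi. The part of these markers in the falls of gst-6, gst-10, gst-13, gst-26, gst-27 and gsto-1 was not tested.

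Of the members that rose with fasting, the mitochondrial kappa class gene gstk-2 did so on every plate. gstk-2 read 6.34, 6.6, 6.99, 6.72 and 6.42 in fed and 7.48, 7.09, 7.4, 7.27 and 7.02 in fasted control worms. On Rheb RNAi, gstk-2 read 6.57, 5.97, 6.2 and 6.18 fed and 6.98, 6.64, 6.95 and 6.85 fasted. On TOR RNAi, gstk-2 read 6.26, 6.14 and 5.97 fed and 7.01, 6.82 and 6.64 fasted. Fed and fasted arrays were apart on each plate, and fed knockdown arrays were in the lower part of the fed control range or below it. gstk-2 rose by 0.64 ± 0.14, rose by 0.63 ± 0.16 and rose by 0.7 ± 0.18 on the 3 plates (limma's adjusted p = 0.0021, 0.0081 and 0.016). The differences between these responses were -0.01 ± 0.21 and 0.06 ± 0.23, with 95% intervals of -0.44 to 0.42 and -0.41 to 0.53. The TOR RNAi call was lost without TOR RNAi fed array 3 or fasted array 1 or 2, at 0.61 to 0.7. Within the control arrays of higher or of lower first quartile alone the change was 0.68 and 0.58, not called (adjusted p = 0.064 and 0.098). Its probe set is also of a type that can share sequence with other transcripts.

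gst-15 rose in control worms, and no change with fasting was called on the knockdown plates. gst-15 read 5.76, 5.23, 4.84, 5.51 and 5.61 in fed and 6.93, 7.19, 6.99, 6.56 and 6.2 in fasted control worms. On Rheb RNAi, gst-15 read 5.96, 4.63, 6.2 and 5.8 fed and 5.77, 5.65, 5.92 and 5.62 fasted. On TOR RNAi, gst-15 read 4.96, 5.55 and 5.59 fed and 5.62, 5.53 and 5.64 fasted. The 5 fasted control arrays lay above all 5 fed ones and above every fasted knockdown array. gst-15 rose by 1.39 ± 0.24, or 2.61-fold, in control worms (limma's adjusted p = 2e-04), against 0.09 ± 0.27 and 0.23 ± 0.31 on Rheb and TOR RNAi. The control rise was 1.76 ± 0.35 among arrays of higher first quartile (adjusted p = 0.0075) and 0.82 ± 0.23 among those of lower (adjusted p = 0.052). The difference of responses passed for Rheb RNAi, at -1.29 ± 0.36 (adjusted p = 0.037), but was lost without 11 of the 24 arrays in turn (-1.3 to -1.11), and did not pass for TOR RNAi, at -1.15 ± 0.39 (adjusted p = 0.16). In control worms the dim gst-3 also rose, by 0.41 ± 0.14, a call lost without 17 of the 24 arrays in turn (0.32 to 0.44) and with 32 units added to each intensity (0.14). Most of its fed control arrays were below log2 4, and with such values set to 4 the change was 0.19.

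gst-30 was called with fasting on every plate with the array number as a block, and on none without it. gst-30 read 6.04, 6.41, 5.71, 6.94 and 6.83 in fed and 6.44, 7.23, 6.56, 7.79 and 8.08 in fasted control worms. On Rheb RNAi, gst-30 read 7.32, 7.12, 7.09 and 8.11 fed and 7.43, 7.78, 8.18 and 8.58 fasted. On TOR RNAi, gst-30 read 6.53, 6.9 and 7.87 fed and 7.24, 7.77 and 8.54 fasted. Each fasted array read above the fed array of its own number, while the fed and fasted arrays of each plate overlapped. The changes were 0.83 ± 0.35, 0.58 ± 0.39 and 0.75 ± 0.45 on the control, Rheb and TOR plates, with limma's adjusted p = 0.00047, 0.017 and 0.017 with the block, against 0.1, 0.37 and 0.49 without it. In control worms the block also called gst-7, at 0.38 ± 0.14 (adjusted p = 0.0025).

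In fed worms, GST genes moved in both directions when Rheb or TOR was lowered. On Rheb RNAi 8 of 41 were higher and 8 lower (19.2% and 13.9% of all genes, 33.1% in either direction), and on TOR RNAi likewise 8 and 8 (19.9% and 13.4%, 33.3% in either). The share of members that were higher, 19.5% in each knockdown, was close to that of all genes. The share that were lower, also 19.5%, was above the 13.9% and 13.4% of all genes. With arrays centred on their medians the counts were 7 higher and 11 lower on Rheb RNAi and 2 and 10 on TOR RNAi, and after quantile normalization 5 and 10, and 4 and 9. Shares of all genes under these 2 scalings are not given here. Fed knockdown and fed control arrays did not overlap for 12 and 15 of the 41 (22.1% and 37% of all genes). The 2 comparisons share the 5 fed control arrays, and no member was called in opposite directions by them. Lower in both were gst-20, gst-29, gst-38, gst-42, gst-44, gstk-1 and gstk-2 (7 of 41), and all but gstk-2 of these were also lower in fasted control worms. That fasting comparison rests on the same fed control arrays. The share of all genes lower in both knockdowns was not taken, so the 7 cannot be set against it.

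gstk-1, the peroxisomal kappa class gene, fell furthest. gstk-1 read 10.63, 10.23, 10.67, 10.77 and 10.82 in fed and 9.07, 8.77, 9.3, 9.12 and 8.72 in fasted control worms. On Rheb RNAi, gstk-1 read 7.96, 7.71, 8.62 and 8.58 fed and 7.78, 7.16, 7.6 and 7.97 fasted. On TOR RNAi, gstk-1 read 8.47, 8.26 and 8.39 fed and 7.84, 7.68 and 7.62 fasted. The fed control arrays stood above all others, the fasted control arrays came next, and every knockdown array, fed or fasted, lay below them. In fed worms gstk-1 fell by 2.41 ± 0.19 on Rheb RNAi, to 18.9% of control (limma's adjusted p = 5.5e-09), and fell by 2.25 ± 0.21 on TOR RNAi (adjusted p = 6.2e-08). With fasting it fell by 1.63 ± 0.18 in control worms (adjusted p = 4.7e-07), against -0.59 ± 0.2 and -0.66 ± 0.23 on the knockdown plates, which were called with the array number as a block (adjusted p = 0.0033 and 0.0069). The fasting response differed from control by 1.04 ± 0.27 on Rheb RNAi (adjusted p = 0.023), a call lost without Rheb RNAi fed array 1 or fasted array 1 or 4 (0.92 to 0.98), and by 0.97 ± 0.29 on TOR RNAi (adjusted p = 0.099, or 0.0048 with the block).

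gst-29, from the same run of chromosome II genes as gst-26 and gst-27, was lower with fasting and in either knockdown. gst-29 read 6.47, 6.44, 6.3, 6.86 and 7.11 in fed and 5.86, 5.14, 5.79, 5.58 and 5.76 in fasted control worms. On Rheb RNAi, gst-29 read 4.57, 4.56, 5.46 and 5.07 fed and 3.32, 3.76, 3.87 and 3.36 fasted. On TOR RNAi, gst-29 read 4.82, 4.87 and 4.94 fed and 4.17, 4.3 and 4.53 fasted. The lowest values were those of the fasted Rheb RNAi arrays, all below log2 4, and fed and fasted arrays were apart on each plate. gst-29 fell by 1.72 ± 0.2 and fell by 1.76 ± 0.22 in fed Rheb and TOR RNAi worms (limma's adjusted p = 1.2e-06 and 3.8e-06). With fasting it fell by 1.01 ± 0.19 in control worms and fell by 1.34 ± 0.21 on Rheb RNAi (adjusted p = 0.00042 and 6.8e-05), the second at -0.92 with values below 4 set to 4. On TOR RNAi it was at -0.55 ± 0.24 (adjusted p = 0.27). Among the control arrays of higher first quartile alone its fasting change of -0.81 ± 0.27 did not pass (adjusted p = 0.087).

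gst-42, the zeta class enzyme of tyrosine breakdown, was lower in fasted control worms and in both fed knockdowns, where no further change with fasting was called. gst-42 read 9.55, 9.25, 9.59, 9.72 and 9.64 in fed and 8.61, 8.24, 8.42, 8.28 and 8.59 in fasted control worms. On Rheb RNAi, gst-42 read 8.87, 8.43, 8.46 and 9.01 fed and 8.36, 8.59, 8.61 and 8.72 fasted. On TOR RNAi, gst-42 read 8.21, 8.35 and 8.89 fed and 7.7, 8.33 and 8.6 fasted. Fed control arrays lay above all the others, and the remaining 5 groups overlapped. gst-42 fell by 1.12 ± 0.17 with fasting in control worms (limma's adjusted p = 3.2e-05), fell by 0.86 ± 0.18 on Rheb RNAi and fell by 1.07 ± 0.19 on TOR RNAi in fed worms (adjusted p = 0.00077 and 0.00025). Its fasting changes on the knockdown plates were -0.13 ± 0.19 and -0.27 ± 0.22, with 95% intervals of -0.51 to 0.26 and -0.72 to 0.17. The response differed from control by 0.99 ± 0.25 on Rheb RNAi (adjusted p = 0.019), which was lost without Rheb RNAi fed array 3 (0.92), and by 0.85 ± 0.27 on TOR RNAi (adjusted p = 0.13, or 0.0084 with the block).

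gst-20 belongs to the run of 9 neighbouring genes that also holds gst-24 and gst-15. The gst-20 probe set is of a type that can share sequence with other transcripts. gst-20 read 8.91, 8.11, 8.71, 8.71 and 8.53 in fed and 8.17, 7.82, 7.93, 7.04 and 7.23 in fasted control worms. On Rheb RNAi, gst-20 read 6.86, 6.7, 7.87 and 7.9 fed and 7.14, 7.04, 7.56 and 7.24 fasted. On TOR RNAi, gst-20 read 7.09, 7.13 and 7.4 fed and 6.73, 7.09 and 7.24 fasted. The fed control arrays were above all knockdown arrays, whereas 1 fasted control array overlapped the fed control range. gst-20 fell by 1.26 ± 0.25 and fell by 1.39 ± 0.28 in the fed knockdowns and fell by 0.96 ± 0.24 with fasting in control worms (limma's adjusted p = 0.00059, 6e-04 and 0.0063). On the knockdown plates the fasting changes were -0.09 ± 0.27 and -0.19 ± 0.31. Among the control arrays of higher first quartile alone the fasting change was -0.6 ± 0.3 (adjusted p = 0.27).

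gst-38 and the dim gst-44 had the same calls. gst-38 read 7.23, 6.81, 7.54, 8.63 and 7.78 in fed and 6.49, 6.24, 7.01, 6.71 and 6.73 in fasted control worms. On Rheb RNAi, gst-38 read 6.66, 6.4, 6.36 and 6.74 fed and 6.51, 6.68, 7.15 and 7.04 fasted. On TOR RNAi, gst-38 read 6.7, 6.49 and 6.73 fed and 6.2, 6.46 and 6.79 fasted. Every fed control array lay above every fed knockdown array, and fed and fasted control arrays overlapped. It fell by 0.96 ± 0.23 with fasting in control worms and fell by 1.06 ± 0.25 and fell by 0.96 ± 0.27 in the fed knockdowns (limma's adjusted p = 0.0053, 0.0023 and 0.0094), and its fasting response on Rheb RNAi differed from control by 1.27 ± 0.35 (adjusted p = 0.036), a call lost without 10 of the 24 arrays in turn (1.17 to 1.32). gst-44 was at 4.77 ± 0.42 (SD, n = 5) in fed and 4.18 ± 0.21 (SD, n = 5) in fasted control worms, and at 3.74 ± 0.24 (SD, n = 4) and 3.8 ± 0.09 (SD, n = 3) in fed Rheb and TOR RNAi worms, close to the floor. It fell by 0.59 ± 0.16 with fasting in control worms and fell by 1.03 ± 0.17 and fell by 0.97 ± 0.18 in the fed knockdowns, the last 2 being -0.77 and -0.77 with values below 4 set to 4. Among the control arrays of higher first quartile alone the fasting changes of gst-38 and gst-44 were -0.62 and -0.44 and were not called. The control fall of gst-44 was also not called with only the compared groups in the fit (-0.59). gstk-2, at -0.38 ± 0.15 and -0.49 ± 0.16, was the seventh, and its calls were lost without 17 of the 24 arrays in turn on Rheb RNAi (-0.39 to -0.29) and without control fed array 3 or TOR RNAi fed array 2 or 3 on TOR RNAi (-0.5 to -0.39). In 1 knockdown only, gst-27 was lower on Rheb RNAi, at -1.15 ± 0.26, and gst-24 on TOR RNAi, with the difference between knockdowns not tested. The fasting response of gst-44 on Rheb RNAi differed from control by 0.89 ± 0.24 (adjusted p = 0.027), which was lost without control fed array 4 or 5, control fasted array 3, Rheb RNAi fed array 1 or fasted array 1 (0.8 to 0.87) and with 32 units added (0.34). All fed Rheb RNAi arrays of gst-44 were below log2 4, and with such values set to 4 the difference was 0.64.

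**Figure D3:**
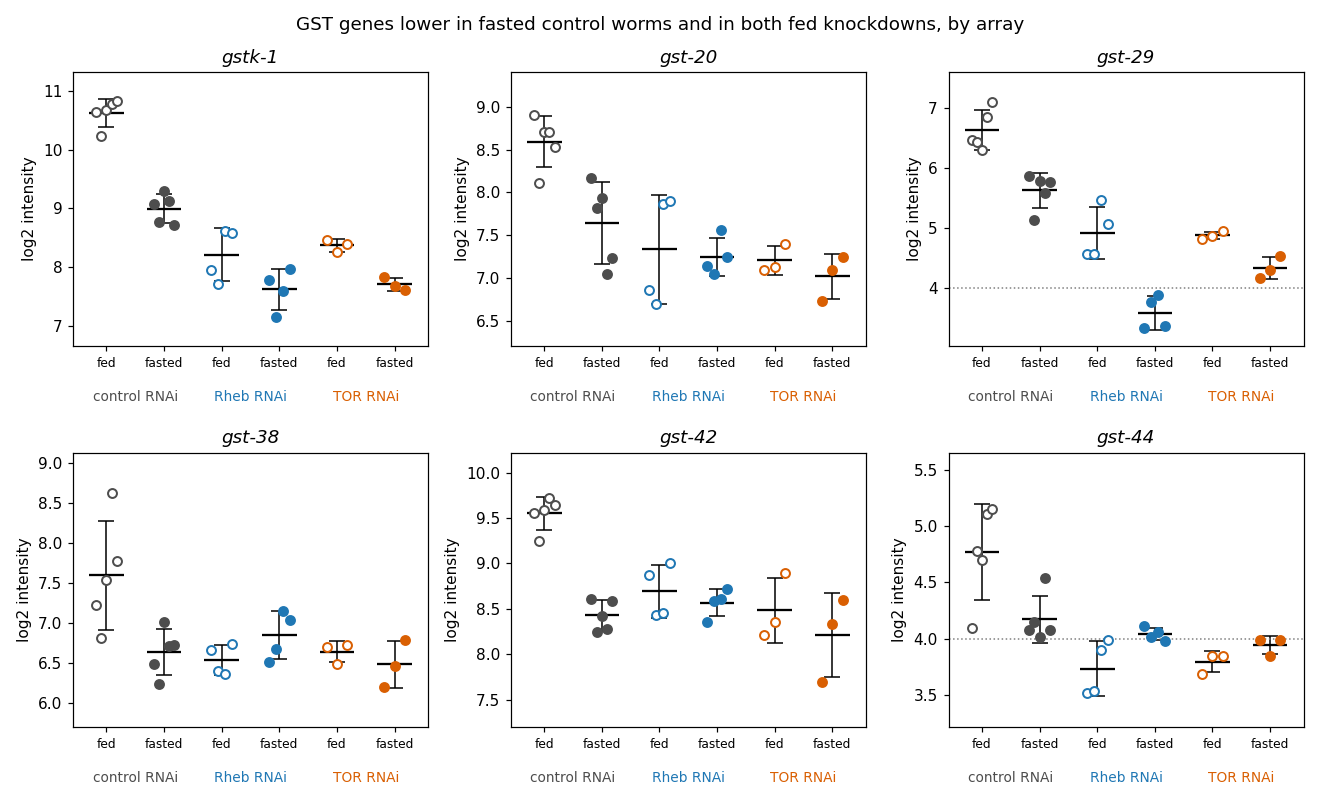
Log2 intensity by array of gstk-1, gst-20, gst-29, gst-38, gst-42 and gst-44 in fed (open) and fasted (filled) worms on the 3 plates, with group mean and SD (bars) and log2 4 as a dotted line where in range. Fed control arrays are the highest group in each panel, and in gst-20, gst-38, gst-42 and gst-44 the knockdown groups show no called change with fasting.

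The largest rise under knockdown was that of gsto-3, an omega class gene. gsto-3 read 8.72, 7.96, 8.4, 8.29 and 8.3 in fed and 9.12, 8.11, 8.82, 8.51 and 8.64 in fasted control worms. On Rheb RNAi, gsto-3 read 10.66, 9.9, 10.93 and 10.12 fed and 10.41, 9.26, 9.85 and 9.7 fasted. On TOR RNAi, gsto-3 read 10.3, 9.52 and 10.02 fed and 10.06, 9.8 and 10.21 fasted. All 14 knockdown arrays lay above all 10 control arrays. In fed worms gsto-3 rose by 2.07 ± 0.24 on Rheb RNAi, or 4.2-fold (limma's adjusted p = 1.4e-06), and rose by 1.62 ± 0.26 on TOR RNAi (adjusted p = 9.3e-05). In fasted worms it rose by 1.17 ± 0.24 and rose by 1.38 ± 0.26 (adjusted p = 0.0013 and 0.00069), and it was called higher in all 4 knockdown comparisons under every alternative that gave a value. Its fasting changes were 0.31 ± 0.23, -0.6 ± 0.26 and 0.07 ± 0.29 on the 3 plates, of which those on control and Rheb RNAi were called with the array number as a block, in opposite directions (adjusted p = 0.035 and 0.0016).

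Higher in both fed knockdowns by less were gst-21, gsto-2, gst-7 and gst-3. gst-21 rose by 0.85 ± 0.22 on Rheb RNAi and 0.88 ± 0.24 on TOR RNAi, the second lost without TOR RNAi fed array 3 (0.67). gsto-2 changed by 0.57 ± 0.14 and 0.41 ± 0.15, gst-7 by 0.46 ± 0.15 and 0.44 ± 0.16, and the dim gst-3 by 0.52 ± 0.15 and 0.43 ± 0.17, or 0.27 and 0.19 with values below 4 set to 4. The TOR RNAi calls of gsto-2, gst-7 and gst-3 were lost without 8, 4 and 15 of the 24 arrays in turn (0.38 to 0.47, 0.33 to 0.43 and 0.37 to 0.48), and that of gst-7 on Rheb RNAi without control fed array 3 or Rheb RNAi fed array 1 or 4 (0.36 to 0.44). For gst-30 the fed Rheb RNAi arrays lay above all fed control arrays and the fed TOR RNAi arrays overlapped them. Rises in 1 knockdown only were called for gst-4, gst-30 (1.02 ± 0.37) and gst-40 (0.54 ± 0.18) on Rheb RNAi, and for gst-14 (1.05 ± 0.38), gst-33 (0.59 ± 0.21) and gst-11 (0.5 ± 0.19) on TOR RNAi, and whether the knockdowns differ in these was not tested. Without 1 array these calls were lost for 5 arrays each of gst-30 (0.79 to 1.05) and gst-40 (0.46 to 0.51), 6 of gst-14 (0.89 to 1.09), 4 of gst-33 (0.39 to 0.59) and 16 of gst-11 (0.42 to 0.53). With 32 units added, the TOR RNAi calls of gst-3, gst-11, gst-14 and gst-33 were lost, at 0.14, 0.18, 0.28 and 0.26. With the division of arrays by first quartile as a block, the rises on TOR RNAi numbered 2, of gst-21 and gsto-3. All fed control arrays of gst-14 were below log2 4, where its change has only a bound, 0.18 with values below 4 set to 4. A second probe set of gst-40 rose by 0.74 ± 0.17 on Rheb RNAi.

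**Figure D4:**
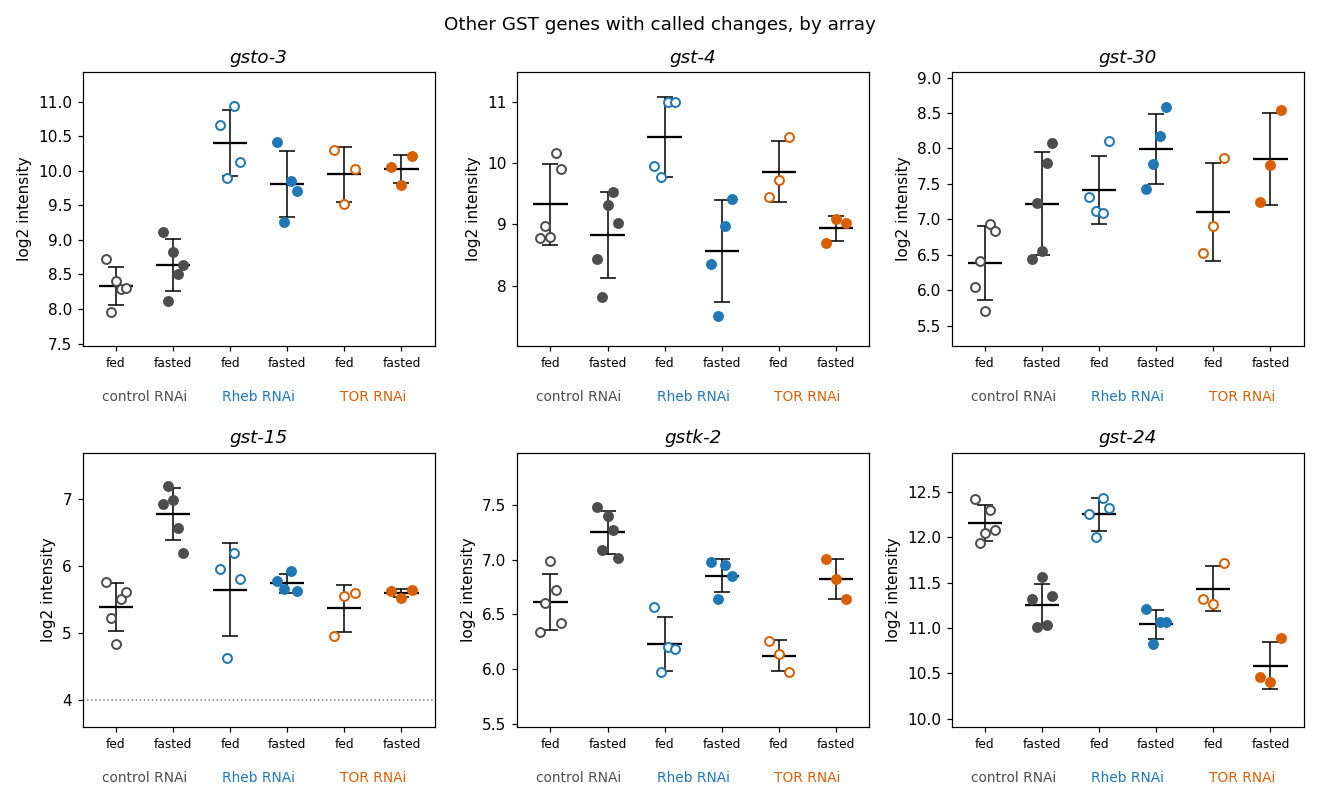
Log2 intensity by array of gsto-3, gst-4, gst-30, gst-15, gstk-2 and gst-24 in fed (open) and fasted (filled) worms on the 3 plates, with group mean and SD (bars) and log2 4 as a dotted line where in range. gsto-3 is higher in all 14 knockdown arrays than in the 10 control arrays, gst-15 is high in fasted control arrays, and gstk-2 is higher in fasted than in fed arrays of each plate.

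Cell type markers also differed in the fed knockdowns, where 19.2% and 19.9% of all genes were higher and 13.9% and 13.4% lower on Rheb and TOR RNAi. Counts of 1 or 2 markers of a list are near those shares. Of 8 oocyte markers 6 and 8 were lower on Rheb and TOR RNAi, of 9 germline markers 5 and 4 were lower, and of 9 neuron markers 6 were higher on each. The summed oocyte intensity was 52284 to 74014 in fed control, 34663 to 49576 in fed Rheb RNAi and 26374 to 38774 in fed TOR RNAi worms, and the summed neuron intensity 6152 to 7564, 9163 to 10454 and 9885 to 10708. Germline sums in the same groups were 17023 to 19899, 12939 to 17995 and 12100 to 15058. Of 7 muscle markers 5 were higher on Rheb RNAi and 1 on TOR RNAi, with sums of 3847 to 7471, 9373 to 15369 and 4615 to 8104, and of 5 hypodermis markers 1 and 3 were lower. Of 8 tested embryo markers 2 were higher on each, with sums of 1673 to 1986, 1801 to 2138 and 1807 to 2052. No oocyte, germline, muscle or neuron marker was below log2 4 on every array of a group, and the part of these cell types in the GST changes was not tested. Of the intestinal markers, 4 and 5 of 11 were higher and 2 and 1 lower, where ges-1 was at -2.25 ± 0.23 and -1.72 ± 0.25 and the GATA factor gene elt-2 rose by 0.5 ± 0.18 and 0.65 ± 0.2.

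In fasted worms, the numbers of members called higher and lower depended on the block, while no call changed direction. On Rheb RNAi 8 members were lower and 1 higher (9.04% and 10.5% of all genes, 19.6% in either direction), and on TOR RNAi 8 lower and 3 higher (10.2% and 14.9%, 25.2% in either). With the array number as a block the counts were 9 lower and 5 higher on Rheb RNAi, where gst-2, gst-7, gst-21 and gst-30 were added as higher and gstk-2, at -0.4 ± 0.15, as lower (limma's adjusted p = 0.0056). With numbers shared by all plates, which the TOR RNAi numbers do not follow, they were 10 lower and 9 higher on TOR RNAi. The shares of all genes above are those without a block. Fasted knockdown and control arrays did not overlap for 11 and 16 of the 41 (14.9% and 25.9% of all genes). Lower in both were gst-6, gst-13, gst-15, gst-26, gst-27, gst-29 and gstk-1, comparisons that share the 5 fasted control arrays. The share of all genes lower in both was not taken here either. gst-13 was at -2.25 ± 0.29 and -1.37 ± 0.32, gst-26 at -2.33 ± 0.32 and -1.62 ± 0.35, and gst-27 at -1.92 ± 0.26 and -2.3 ± 0.28. gst-6 was at -1.7 ± 0.36 and -1.52 ± 0.39, and gst-15 at -1.03 ± 0.25 and -1.18 ± 0.28. gst-29 was at -2.05 ± 0.2, or -1.62 with values below 4 set to 4, and -1.29 ± 0.22, and gstk-1 at -1.37 ± 0.19 and -1.29 ± 0.21. gsto-1, below log2 4 on all fasted Rheb RNAi arrays, was at -1.98 ± 0.58 there, or -1.39 with values below 4 set to 4, and was not called with 32 units added (-0.8). On TOR RNAi its -1.56 ± 0.38 was called when control fed array 4 was left out of the fit (limma's adjusted p = 0.0051, against 0.074 with it). Higher in fasted TOR RNAi worms, besides gsto-3, were gst-1 and the dim gst-11, the latter by 0.64 ± 0.19, a call lost without TOR RNAi fasted array 2 or 3 (0.63 to 0.65). All fasted control arrays of gst-11 were below log2 4, and with such values set to 4 the change was 0.34.

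Tested directly, the fasting response on Rheb RNAi differed from control in 7 members, 4 above and 3 below (4.89% of all genes, 1.07% and 3.82%). It was lower for gst-13, gst-15 and gst-26, and higher for gst-38, gst-42, gst-44 and gstk-1, the last 4 being genes that fed Rheb RNAi worms already had at lower level. The difference of responses contains the same fed arrays with the opposite sign, so a low fed Rheb RNAi level by itself raises it. The 2 results are therefore not independent. gst-26 was at -1.59 ± 0.45 (limma's adjusted p = 0.041), a call lost without 13 of the 24 arrays in turn (-1.59 to -1.41) and with 32 units added (-0.67). On TOR RNAi 1 member was called, with a lower response (2.44% of all genes in either direction, 1.74% lower), gst-27 at -1.58 ± 0.4 (adjusted p = 0.035), lost without 9 of the 24 arrays in turn (-1.6 to -1.3). With the array number as a block, and TOR numbers as blocks of their own, 11 and 6 members were called, adding gst-1, gst-4, gst-27 and gsto-3 for Rheb RNAi and gst-13, gst-26, gst-42, gst-44 and gstk-1 for TOR RNAi. The share of all genes called with the block is not given here. No member was called between the Rheb and TOR RNAi responses by limma (0.318% of all genes), where changes ran from -1.02 to 0.93 and 1 member had an unadjusted p under 0.05.

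gst-1, related to the pi class of other animals, differed little between groups. In linear intensity units gst-1 read 4330, 4680, 3740, 5040 and 4970 in fed and 3560, 4130, 3100, 3610 and 3510 in fasted control worms. On Rheb RNAi, gst-1 read 3830, 3780, 3040 and 4100 fed and 3790, 3830, 3200 and 4000 fasted. On TOR RNAi, gst-1 read 4810, 4880 and 4390 fed and 4990, 4840 and 4470 fasted. Its 24 values lay between 3040 and 5040 units, and fed and fasted arrays overlapped on every plate. It fell by 0.34 ± 0.11 with fasting in control worms, a call lost without control fed array 2, 4 or 5 or fasted array 1, 3, 4 or 5 (-0.35 to -0.29), and was higher by 0.42 ± 0.13 in fasted TOR RNAi worms, lost without control fasted array 3 or TOR RNAi fasted array 1 or 2 (0.37 to 0.4). The members called in none of the 10 comparisons, 10 in all, were gst-2, gst-8, gst-12, gst-16, gst-18, gst-28, gst-31, gst-36, gst-41 and gst-43. Of these gst-2, gst-18 and gst-31 had group means below log2 4. With the array number as a block gst-16 was called with fasting in control worms, at 0.56 (limma's adjusted p = 0.0044), as was gst-41 at 0.5 (adjusted p = 0.04), and gst-2, gst-28 and gst-31 in fed Rheb RNAi worms (adjusted p = 0.001, 0.026 and 0.03).

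By the order of genes in the RefSeq annotation (assembly WBcel235), 25 GST genes form 4 runs with at most 3 other coding genes between neighbours, and 21 of the 41 tested members lie on chromosome II. Genes of 1 run differed in their calls. In the run from gst-6 to gst-9, gst-6 and gst-9 fell on at least 1 plate, whereas gst-7 was at 0.38 ± 0.14 with fasting in control worms and gst-8 at 0.03 ± 0.1. In the run from gst-20 to gst-18, with 7 tested genes, gst-20 and gst-24 fell, gst-15 rose and the other 4 were not called with fasting. In the run from gst-26 to gst-35, with 6 tested genes, gst-26, gst-27, gst-29 and gst-39 fell and gst-28 and gst-31 were not called. In the run of gst-3, gst-2 and gst-4, gst-4 fell on Rheb RNAi and gst-3 rose in control worms. Inside runs 9 of 20 tested genes fell on at least 1 plate, and outside them 12 of 21. The share of all genes lower on at least 1 plate was not taken, so neither count can be set against it.

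**Figure D5:**
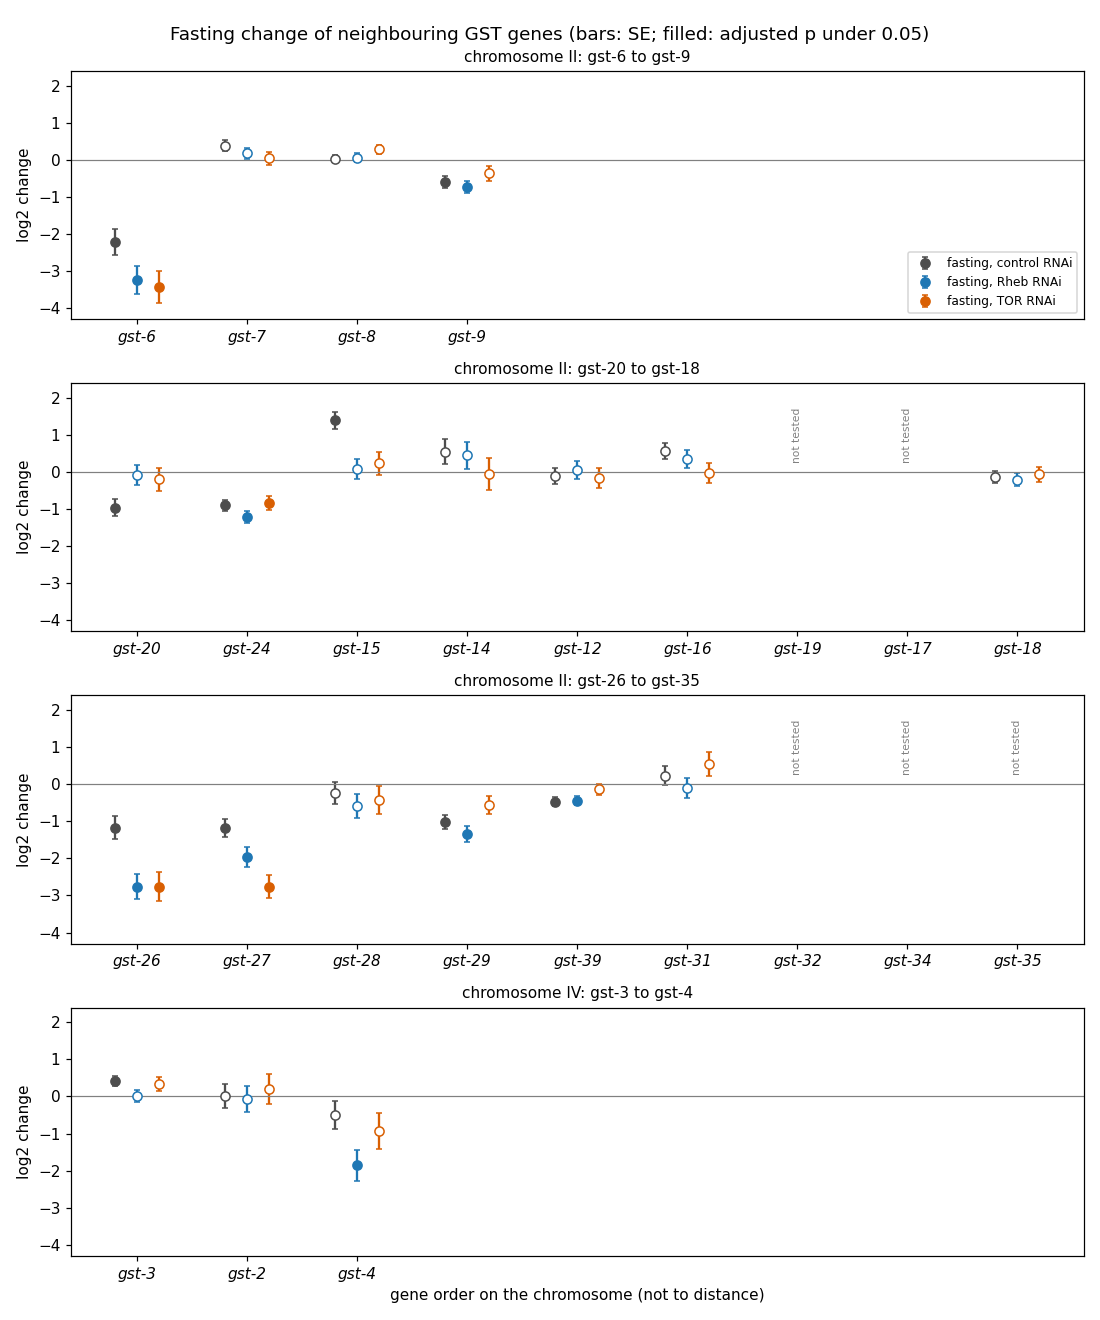
Log2 change with fasting (± SE) on control, Rheb and TOR RNAi for GST genes of 4 neighbouring runs, in chromosome order and not to distance, filled where limma's adjusted p is under 0.05. Neighbours differ within a run, as gst-6 (falls) and gst-7, or gst-24 (falls) and gst-15 (rises in control worms).

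Genes that make, recycle or use glutathione were looked at beside the share of all genes called with fasting, 18.9%, 11.9% and 6.24% on the 3 plates. Of 6 tested genes of glutathione synthesis and recycling, 1, 0 and 0 fell with fasting on the control, Rheb and TOR plates by limma (also 1, 0 and 0 at an unadjusted p under 0.05), and gcs-1, the rate-limiting enzyme of synthesis, was at -0.06 ± 0.11, 0.17 ± 0.13 and 0.19 ± 0.15. Of 7 glutathione peroxidases gpx-5 fell by 1.68 ± 0.25 and gpx-6 rose by 0.59 ± 0.19 in control worms. On the Rheb and TOR RNAi plates limma called none of the peroxidases with fasting, where 3 and 1 had an unadjusted p under 0.05. Of 16 genes of the thioredoxin, glutaredoxin and peroxiredoxin families and their partners 4 rose with fasting in control worms, among them djr-1.2 of the DJ-1 family by 1.65 ± 0.19, and its response differed by -1.33 ± 0.28 and -1.46 ± 0.3 on Rheb and TOR RNAi. The djr-1.2 means lay below log2 4 in fed control, Rheb and TOR RNAi worms (3.98, 3.84 and 3.6) and in fasted TOR RNAi worms (3.79). Such values give only a bound. In the fed knockdowns 4 and 5 of these 16 were higher, against 19.2% and 19.9% of all genes. Among them trx-3, a thioredoxin of the intestine, was higher in both, by 1.71 ± 0.31 and 2.53 ± 0.34. Among 9 transporters of the mrp and related families, which export conjugates, 1 fell with fasting in control worms. Of the same 9 genes 3 and 2 were higher and 2 and 3 lower in the fed knockdowns, where 13.9% and 13.4% of all genes were lower. Among them mrp-2 was higher by 1.13 ± 0.18 and 0.96 ± 0.2, and mrp-4 and mrp-7 were lower, mrp-4 at -1.23 ± 0.21 and -2.01 ± 0.23.

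Of 21 regulators of detoxification genes, 2 rose with fasting in control worms, where 11% of all genes rose. On Rheb and TOR RNAi 3 and 1 fell, where 8.67% and 5.16% of all genes fell. skn-1 was at -0.01 ± 0.16, 0.24 ± 0.18 and 0.23 ± 0.2 with fasting and at 0.12 ± 0.17 and -0.34 ± 0.18 in the fed knockdowns. In the fed knockdowns 6 and 5 of the 21 were higher, against 19.2% and 19.9% of all genes. Among them sek-1, a kinase upstream of SKN-1, was higher by 0.86 ± 0.16 and 0.87 ± 0.17. In the fasted knockdowns 1 of the 21 was lower in each, against 9.04% and 10.2% of all genes. This was nhr-8, a nuclear receptor for foreign compounds, at -1.6 ± 0.23 and -0.86 ± 0.25. Of 5 tyrosine breakdown genes, gst-42 included, 3, 2 and 2 fell with fasting on the 3 plates, against 7.91%, 8.67% and 5.16% of all genes. hgo-1 fell on each, with changes of -0.87 ± 0.21, -1.52 ± 0.23 and -1.6 ± 0.27, and hpd-1 on Rheb and TOR RNAi, at -2.1 ± 0.33 and -2.25 ± 0.38. In the fed knockdowns hpd-1 was higher, by 0.84 ± 0.32 and 1.6 ± 0.34, where gst-42 was lower.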

How the data were processed

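Whole adult N2 worms were hybridised to 24 single-colour Affymetrix C. elegans Genome Arrays, 1 array a sample, from 5 µg of RNA per the labels. The deposited values are intensities on a linear scale, which the authors made from the scans with GCRMA (version not given in the sources used here), with GeneSpring GX 7.3.1 also named per the labels. Each deposited intensity was turned to log2 here and not normalized again. Of 22625 probe sets, 77 were controls and 20766 named 1 gene through the platform's annotation, giving 17118 genes; the highest-mean probe set stood for a gene, and 12277 genes above log2 4 on at least 3 arrays were tested. All 45 members' symbols matched RefSeq (assembly WBcel235), which was used only for names and gene order. No sequence was used here.

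Group means of the 6 groups were fitted in limma 3.58.1 (R 4.3.3; lmFit, eBayes), with Benjamini-Hochberg adjustment over all genes in each of 10 comparisons and a call at an adjusted p under 0.05. The script was tested on simulated data. The arrays' number limits the precision. Values by array are given for the 14 members of largest called change and for 7 members fixed by their role, of which gst-4, gst-10, gsto-1 and gstk-1 are also among the 14. They are also given for gst-30 and gst-38, chosen after their values were seen. The members, the gene lists and the tests were chosen with earlier results of these data known.

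The labels number the samples within each group and speak of 5 independent experiments. Same-numbered samples deviated together within each plate and between control and Rheb RNAi (correlations of 0.18 to 0.73), but TOR RNAi numbers did not follow those of the other plates (-0.38 to 0.28), so the block used the control and Rheb RNAi numbers jointly and the TOR RNAi numbers apart. Alternatives were centring, quantile normalization, an added offset of 32, other filters on dim probe sets, other probe set types, fits on the compared groups, a trended fit, the block, each array left out, the 2 arrays of highest 3′ ratio left out, and, chosen after seeing the data, the division of arrays by first quartile.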

Additional observations from a re-analysis of the deposited data

Results flagged for a closer look

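Only the members of largest called change and those fixed by their role were examined for far arrays. Of 68 sets of arrays examined (such a member in a group of 4 or 5 arrays), 2 held an array far from the others by Dixon's criterion, which flags about 1 in 20 sets by chance. gsto-1 read 9.52 on control fed array 4, where the nearest other array read 6.08 and the farthest 5.49. gst-13 read 7.53 on control fasted array 2, where the others lay between 8.27 and 8.47.

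The fasting response differed between plates in 8 tests of the difference itself by limma. On Rheb RNAi it was below that of control worms by -1.89 for gst-13, -1.29 for gst-15 and -1.59 for gst-26, and above it by 1.27 for gst-38, 0.99 for gst-42, 0.89 for gst-44 and 1.04 for gstk-1. On TOR RNAi it was below that of control worms by -1.58 for gst-27.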

How the results depend on the processing

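Of 103 calls of a member in a comparison, 55 held under every alternative run, 30 were lost without some array, 47 under some other alternative, and none changed direction. With the replicate block, TOR numbers as blocks of their own, calls went from 9 to 14 for fasting on TOR RNAi, from 9 to 14 (5 higher) for Rheb RNAi in fasted worms, from 7 to 11 for the difference of responses on Rheb RNAi and from 1 to 6 on TOR RNAi, and with numbers shared by all plates from 11 to 19 (9 higher) for TOR RNAi in fasted worms and from 1 to 4 for the response on TOR RNAi. The block, where fitted, removed no call. Shares of all genes called under the alternatives are not given here. TOR RNAi in fed worms gave 10 calls in place of 16 with a filter at log2 6, and 10 with the array set as a block. The response difference on Rheb RNAi gave 2 calls with only the compared groups in the fit, 3 without the 2 arrays of highest 3′ ratio and 3 within the arrays of higher first quartile. That on TOR RNAi gave 0 without probe sets of shared types, 0 without the 2 arrays, 2 with only the compared groups, 3 with the array set as a block and 2 within the arrays of lower first quartile. Fasting on control RNAi gave 8 in place of 19 within the arrays of higher first quartile. With each array left out in turn, the fasting comparisons gave 17 to 19 calls on control, 12 to 17 on Rheb and 6 to 11 on TOR RNAi. Rheb RNAi gave 12 to 20 in fed and 9 to 11 in fasted worms, and TOR RNAi 9 to 17 and 9 to 14, with 10 without control fed array 3 or TOR RNAi fed array 2 and 9 without TOR RNAi fed array 3. The response differences gave 3 to 7, 0 to 2 and, between knockdowns, 0 to 0. Centring moved the median of all genes for TOR RNAi in fed worms from 0.037 to -0.086. The cause of these shifts was not tested. Near log2 4 the arrays do not order values.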
